A study of Mus musculus with 4 samples.

Results

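Pancreatic β-cells were compared between 1 library of mouse islets treated with IL-1β and 1 library of untreated islets. A barcode was kept when 200 to 4000 genes were detected in it and no more than 12% of its UMIs were mitochondrial. Cells were selected on hormone UMIs: a kept barcode was called a β-cell when *Ins1* and *Ins2*, the mouse insulin genes, made up at least 5% of its UMIs while *Gcg*, *Sst* and *Ppy*, the hormones of α-, δ- and PP-cells, each stayed under 1%. A UMI (unique molecular identifier) marks 1 captured RNA molecule. These limits gave 1170 untreated β-cells of 1521 kept cells, or 76.9% (74.7 to 79.0, exact binomial 95% interval), and 1123 IL-1β-treated β-cells of 2018, or 55.6% (53.4 to 57.8). The 2293 β-cells were drawn from 12571 barcodes in the 4 libraries of the series.

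The islets were those of adult male C57BL/6 mice (C57BL6/J in the study's methods) and carried no engineered allele. All 4 libraries came from a common mixture of islets of several mice. A portion of the intact islets received no cytokine, and the other portions received IL-1β (human recombinant), IFN-γ or both for 6 h. Cells were then dispersed for droplet-based 3′ single-cell RNA sequencing. Each portion gave 1 library, so the differences below were not checked on replicates and carry no test. Intervals are 95% intervals of counting error alone, exact Poisson for levels, exact conditional binomial for ratios and exact binomial for shares.

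IL-1β is a cytokine that binds the IL-1 receptor, which signals through the adaptor MyD88 and the kinases of the IRAK family to the NF-κB transcription factors and to MAP kinases. At rest NF-κB is held in the cytoplasm by IκB proteins. Once released it acts on many immune genes and on the genes of its own inhibitors. β-cells sense glucose through its uptake and phosphorylation and answer with insulin secretion, and transcription factors such as PDX1, MAFA and NKX6-1 maintain the genes for both.

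The libraries differed in depth. The median β-cell held 17220.5 UMIs and 3517.5 genes without treatment, against 8327 UMIs and 2565 genes with IL-1β, and the summed β-cell UMIs were 19868129 and 9573837. Of 2364 untreated cells within the lower gene and mitochondrial limits, 843 exceeded 4000 genes, whereas 146 of 2164 did with IL-1β. No β-cell barcode occurred in both libraries, and Scrublet called 6 and 3 of these β-cells doublets. Cells close to the limits were few except at the gene limit, where 111 untreated β-cells had 3900 to 4000 genes and 77 cells had 4001 to 4100, against 11 and 10 with IL-1β. Near the insulin limit, 6 untreated and 16 treated cells had 5 to 6% insulin UMIs, and 7 and 21 otherwise eligible cells had 4 to 5%. At the mitochondrial limit 25 and 43 cells lay between 11 and 12%, and 22 and 24 between 12 and 13%.

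Insulin UMIs chose the cells, so their level is given as a description. *Ins1* and *Ins2* together made up 42.3% of all β-cell UMIs without treatment and 22.3% with IL-1β. The median cell held 41.4% (quartiles 33.1 and 48.1) and 20.9% (14.6 and 27.3), respectively. All other genes share what insulin leaves of the total, and the median gene's level in UMIs per 1000000 UMIs (CPM) was therefore 1.35 times higher with IL-1β, a log2 shift of 0.43. With the islet hormone genes left out of the totals this shift was -0.01. Ratios are reported below relative to the median gene, that is, as the CPM ratio of IL-1β over untreated divided by 1.35. A gene was tested when it reached 10 CPM in either library, and counted as higher or lower when it passed 2-fold both as a CPM ratio and relative to the median gene. A gene is described as within 2-fold when it passed on neither scaling.

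Of 7944 genes tested, 600 were higher with IL-1β (7.55%) and 288 were lower (3.63%). The CPM ratio alone gave 1413 higher (17.8%) and 288 lower, so that 83.1% of its calls were higher. Relative to the median gene alone there were 600 higher and 677 lower (8.52%), and 47.0% were higher. The plot of all genes shows the higher genes extending much further from the median than the lower ones. With hormone, cell type marker and mitochondrially encoded genes left out, the absolute CPM rises were largest for the nuclear RNA *Malat1*, the metallothioneins *Mt1* and *Mt2*, the translation factor *Eef1a1* and *Tpt1*, and the falls for the granin genes *Chga* and *Pcsk1n*, the ferritin gene *Ftl1*, *Mafa* and *Ppp1r1a*. *Malat1* had a relative ratio of 1.23 (1.22 to 1.24), *Eef1a1* one of 1.38 (1.36 to 1.40) and *Tpt1* one of 1.04 (1.03 to 1.05), whereas *Ftl1* and *Pcsk1n* had 0.487 (0.479 to 0.495) and 0.465 (0.453 to 0.476), so none of these 5 passed 2-fold on both scalings.

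The level filter reads the compared libraries, so a gene under 10 CPM on one side could enter only through the other. Of the 600 higher genes 301 were under 10 CPM without treatment, and of the 288 lower genes 171 were under 10 CPM with IL-1β. The genes were therefore counted again with the filter set on the IFN-γ library, which is on neither side, an alternative chosen after seeing the data. Of 7631 genes at 10 CPM there, 452 were higher (5.92%) and 248 lower (3.25%). Counts with this filter follow below for the lists in which many genes entered only through the IL-1β library.

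**Figure D1:**
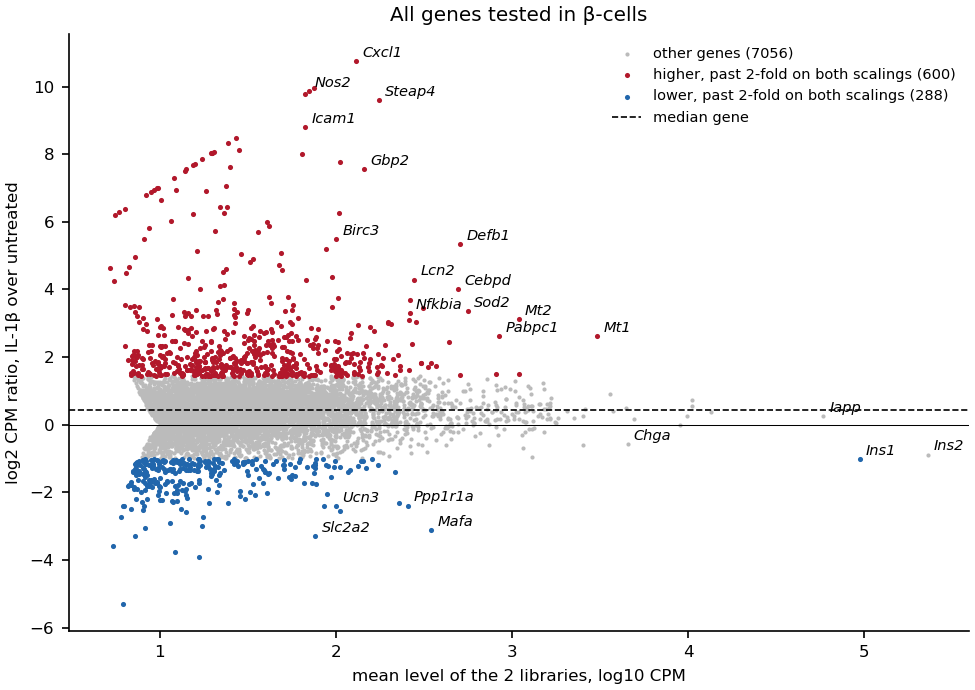
Log2 CPM ratio of IL-1β over untreated β-cells against the mean level of both libraries in log10 CPM, 1 point per gene tested. Red points are the 600 higher genes, blue points the 288 lower genes and grey points the rest, the dashed line is the median gene at 0.43, and a gene without untreated UMIs is drawn at the ratio to a floor of 3 UMIs. Most genes lie close to the dashed line, the higher genes extend far above it, and *Mafa* and *Slc2a2* lie lowest among the labelled genes.

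The list of the receptor and its proximal signaling genes had a share of higher genes close to the 7.55% over all genes tested. *Il1r1*, the receptor chain that binds IL-1β, was at 239.7 CPM (233 to 247) without treatment and 254 CPM (244 to 264) with IL-1β, a relative ratio of 0.785 (0.747 to 0.824). Of 11 genes tested in this list, 1 was higher (3 by CPM ratio alone) and 0 were lower, with a median relative log2 ratio of 0.44. The higher gene was *Myd88*, the adaptor, at 7.35 CPM (6.20 to 8.64) without treatment and 22.98 CPM (20.04 to 26.2) with IL-1β (relative ratio 2.32, 1.87 to 2.88). The kinase gene *Irak1* had a relative ratio of 0.864 (0.806 to 0.927) and the ubiquitin ligase gene *Traf6* one of 1.71 (1.45 to 2.02).

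Genes of the NF-κB subunits and their inhibitors were higher with IL-1β. Of 23 listed and 18 tested, 14 were higher and 0 lower, but 9 of the 18 entered only through the IL-1β library. With the filter on the IFN-γ library 5 of 9 were higher and 0 lower. *Nfkbia* encodes IκBα, which retains NF-κB in the cytoplasm. It was at 48.4 CPM (45.4 to 51.5) without treatment and 477 CPM (463 to 491) with IL-1β, 7.30 (6.81 to 7.84) times as high relative to the median gene. *Tnfaip3*, whose product A20 ends NF-κB signaling, was at 1.26 CPM (0.814 to 1.86) without treatment and 79.8 CPM (74.2 to 85.7) with IL-1β, a relative ratio of 47.0 (31.6 to 73.1). *Birc3*, a ubiquitin ligase gene of the same pathway, was at 4.38 CPM (3.51 to 5.40) without treatment and 197 CPM (188 to 206) with IL-1β (relative ratio 33.4, 26.9 to 41.9). *Nfkbiz*, which encodes a nuclear cofactor of NF-κB, had a relative ratio of 10.0 (8.82 to 11.4), and *Zc3h12a*, an RNase that degrades cytokine mRNAs, one of 63.8 (34.4 to 134).

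The subunit genes had smaller ratios than *Tnfaip3*, *Birc3* and *Nfkbiz*. Relative ratios were 3.55 (3.20 to 3.95) for *Nfkb1*, 5.66 (4.08 to 7.99) for *Nfkb2*, 5.04 (3.99 to 6.42) for *Relb* and 3.73 (2.80 to 5.03) for *Rel*. *Rela* was at 13.6 CPM (12.1 to 15.4) without treatment and 30.9 CPM (27.5 to 34.6) with IL-1β and passed 2-fold only as a CPM ratio, with a relative ratio of 1.68 (1.42 to 1.99). The list's 4 tested genes that were not called all had relative ratios under 2.

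Promoters of 4 genes are shown, all of them with a match to the NF-κB motif, so that it can be read beside the measured change. They are RefSeq sequences of GRCm38.p6, each from 250 bases before to 50 bases after the gene start, printed 5′ to 3′ on the gene's strand. Capitals mark the letters searched, GGGA followed by any 2 bases and TTCC, on either strand. Overlapping matches on the 2 strands form 1 run of capitals. The letters were found in 1.47% of 32851 promoters of this length and in 1.69% of the 6465 promoters of genes tested. Promoters were found for 20 of the 23 genes of the NF-κB list, of which 3 held the letters (*Cyld*, *Nfkb2* and *Nfkbia*). For the chemokine list 13 of 20 were found, too few to read as a share, and 4 held the letters (*Cxcl1*, *Cxcl2*, *Cxcl3* and *Cxcl10*). *Cyld* and *Cxcl3* were not among the higher genes. Only 77.8% of the higher and 78.8% of the lower genes had a promoter in the table, too few for a comparison of these sets.
*Nfkbia*, chr12:55492598-55492897, minus strand: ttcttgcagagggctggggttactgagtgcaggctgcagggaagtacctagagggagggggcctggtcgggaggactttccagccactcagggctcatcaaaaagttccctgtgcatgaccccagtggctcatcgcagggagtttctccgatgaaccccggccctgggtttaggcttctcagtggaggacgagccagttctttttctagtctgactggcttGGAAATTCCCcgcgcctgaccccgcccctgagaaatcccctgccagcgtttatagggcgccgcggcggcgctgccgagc
*Nfkb2*, chr19:46305445-46305744, plus strand: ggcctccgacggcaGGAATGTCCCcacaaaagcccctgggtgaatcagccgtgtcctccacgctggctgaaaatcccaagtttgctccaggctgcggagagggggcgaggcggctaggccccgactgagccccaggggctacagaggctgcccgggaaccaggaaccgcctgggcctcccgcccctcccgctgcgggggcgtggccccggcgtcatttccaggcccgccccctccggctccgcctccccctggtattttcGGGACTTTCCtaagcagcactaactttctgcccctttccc
*Cxcl1*, chr5:90890995-90891294, plus strand: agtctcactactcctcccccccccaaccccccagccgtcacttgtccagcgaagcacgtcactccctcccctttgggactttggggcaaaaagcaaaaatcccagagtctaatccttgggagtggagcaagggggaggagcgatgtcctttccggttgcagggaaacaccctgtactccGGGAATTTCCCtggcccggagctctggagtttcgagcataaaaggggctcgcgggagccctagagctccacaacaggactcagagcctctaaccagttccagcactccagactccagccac
*Cxcl10*, chr5:92348840-92349139, minus strand: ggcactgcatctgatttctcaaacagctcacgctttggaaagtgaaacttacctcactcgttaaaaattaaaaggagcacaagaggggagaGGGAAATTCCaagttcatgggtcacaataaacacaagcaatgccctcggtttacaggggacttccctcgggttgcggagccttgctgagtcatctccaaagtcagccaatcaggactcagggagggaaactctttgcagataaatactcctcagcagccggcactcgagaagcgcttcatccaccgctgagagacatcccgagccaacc
*Nfkbia* had 1 match and *Nfkb2* had 2, 1 on each strand. In *Cxcl1* 2 matches on opposite strands overlapped, and *Cxcl10* had 1. A match describes the letters only, since no binding was measured.

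Few chemokine genes reached the level needed. Of 20 listed 6 were tested, and 5 of these entered only through the IL-1β library, so that the count of 6 higher and 0 lower follows in part from the filter. With the filter on the IFN-γ library 3 of 3 were higher. *Cxcl1*, which attracts neutrophils (chr5:90891241-90893115, GRCm38), had no UMI in 1170 untreated β-cells and 2507 UMIs with IL-1β, or 262 CPM. Its relative ratio was 1286 with the untreated level set at a floor of 3 UMIs in the library. The exact lower 95% limit of the ratio was 1045. *Cxcl2*, a close relative, also had none without treatment and 39.9 CPM with IL-1β. *Ccl2*, a monocyte attractant, had 2 UMIs without treatment and 1274 UMIs with IL-1β, a relative ratio of 979.9 (271 to 8100.3) from the 2 UMIs counted and 653 against the floor of 3. The interferon-linked *Cxcl10* was at 2.16 CPM (1.57 to 2.92) without treatment and 65.3 CPM (60.3 to 70.6) with IL-1β (relative ratio 22.4, 16.4 to 31.2). *Ccl28* and *Cxcl16* had relative ratios of 8.58 (7.31 to 10.1) and 2.48 (2.17 to 2.83). A UMI of *Cxcl1* was found in 22.4% and of *Ccl2* in 13.8% of the IL-1β-treated β-cells, each thinned to 4000 UMIs. In the same library 10.8% and 21.6% of 37 macrophages (median 5170 UMIs) and 14.3% of 35 endothelial cells (median 4015 UMIs) for either gene held one. In the endothelial cells *Cxcl1* was at 636 CPM, from 100 UMIs in 5 cells, and *Ccl2* at 2552 CPM. The β-cells had 262 CPM and 133 CPM, and the macrophages 110 CPM and 105 CPM. The *Ccl2* share in β-cells was no higher than in these other cells. The part of free RNA was not tested for either gene.

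Of 29 other cytokine and growth factor genes listed 6 were tested. The 5 higher genes all entered only through the IL-1β library. With the filter on the IFN-γ library 3 of 4 were higher and 0 lower. *Csf1*, the macrophage growth factor, was at 9.06 CPM (7.78 to 10.5) without treatment and 93.9 CPM (87.9 to 100.2) with IL-1β (relative ratio 7.68, 6.54 to 9.07). *Csf3*, the granulocyte growth factor, had no untreated UMI and 28.4 CPM with IL-1β. *Il1b* itself was at 6.34 CPM (5.28 to 7.55) without treatment and 18.9 CPM (16.3 to 21.9) with IL-1β (relative ratio 2.21, 1.75 to 2.80). Macrophages, which also make *Il1b*, had 12 marker genes whose summed level in the β-cell barcodes was 97.9 CPM without treatment and 60.8 CPM with IL-1β. The most abundant of them, *C1qa*, was at 71.1 CPM and 36.5 CPM. Of the 2 markers tested, 1 was higher and 0 were lower.

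Genes of epithelial defense and the acute-phase response had 11 of 28 listed members tested. All 11 were higher, but 8 of them entered only through the IL-1β library, and the filter on the IFN-γ library left 3, all higher. The summed level of the 28 was 78.6 CPM without treatment and 2412 CPM with IL-1β. *Steap4*, a metalloreductase gene (chr5:7960457-7982213), was at 0.453 CPM (0.207 to 0.860) without treatment and 350.3 CPM (339 to 362) with IL-1β, a relative ratio of 573 (302 to 1255). It was found in 0.264% of untreated and 48.9% of treated β-cells after thinning. *Hamp*, which encodes the iron hormone hepcidin (chr7:30942368-30944032), had no untreated UMI and 1434 UMIs with IL-1β, and a UMI in 11.7% of thinned cells. Its relative ratio in these cells was 735 against the floor of 3 UMIs (exact lower 95% limit 597). That value rests on the gene limit. Without the upper gene limit 14 *Hamp* UMIs appeared in 1793 untreated β-cells, and the relative ratio was 297 (177 to 545). In the IL-1β library 0 of 37 macrophages held a UMI of *Steap4* or *Hamp* (upper limit 9.49%), while 2 of 35 endothelial cells held *Steap4* (5.71%) and 1 held *Hamp* (2.86%).

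*Lcn2*, whose product lipocalin 2 binds bacterial iron carriers, was at 27.1 CPM (24.8 to 29.5) without treatment and 531 CPM (516 to 546) with IL-1β (relative ratio 14.5, 13.3 to 15.9), and *Defb1*, an antimicrobial peptide gene, was 29.9 (27.3 to 32.8) times as high. The serum amyloid gene *Saa1* had no untreated UMI and *Saa3* had 2, against 179 UMIs and 470 UMIs with IL-1β. The complement genes *C3* and *Cfb* had relative ratios of 4.12 (3.12 to 5.49) and 25.9 (16.1 to 44.3). *Ceacam1*, an adhesion molecule gene, and *Serpina3n*, a protease inhibitor gene, had relative ratios of 24.8 (18.9 to 33.1) and 56.5 (32.0 to 110.2). *Lrg1*, *Fgb* and *Il4i1*, which encode a secreted acute-phase glycoprotein, a fibrinogen chain and an amino acid oxidase, stood among the 15 largest ratios without belonging to a list, at 189 (102 to 395), 43.4 (29.8 to 65.7) and 163 (104 to 271). The CPM ratio of *Il4i1* was 219 in all β-cell UMIs and 103 (54.0 to 226) after thinning. Without the upper gene limit the relative ratio was 89.2 (65.4 to 125) for *Lrg1* and 13.5 (11.6 to 15.9) for *Fgb*. In cells of 4000 to 10000 UMIs, with 5 untreated UMIs, the CPM ratio of *Lrg1* was 16.5 (7.04 to 51.0), against 255 in all β-cells.

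Nitric oxide is made from arginine by the inducible synthase, the product of *Nos2*. *Nos2* (chr11:78920787-78960254) had no untreated UMI and 1342 UMIs with IL-1β, a relative ratio of 688 against the floor of 3 UMIs (exact lower 95% limit 559). A UMI was found in 22.4% of thinned β-cells, against 0 of 37 macrophages and 1 of 35 endothelial cells (2.86%) of the same library. Of 9 genes tested for nitric oxide, arginine and tetrahydrobiopterin, 3 were higher, 0 were lower on both scalings, and the median relative log2 ratio was -0.44. The arginine transporter gene *Slc7a1* was at 19.5 CPM (17.6 to 21.6) without treatment and 66.6 CPM (61.6 to 72.0) with IL-1β (relative ratio 2.53, 2.23 to 2.88), whereas its relative *Slc7a2* was at 78.1 CPM (74.3 to 82.1) without treatment and 43.9 CPM (39.8 to 48.3) with IL-1β (relative ratio 0.416, 0.373 to 0.464), which passed 2-fold only relative to the median gene. *Odc1*, the ornithine decarboxylase of polyamine synthesis, was at 37.3 CPM (34.7 to 40.1) without treatment and 274 CPM (264 to 285) with IL-1β (relative ratio 5.45, 5.02 to 5.92). *Gch1*, which starts the synthesis of the cofactor tetrahydrobiopterin, had a relative ratio of 1.15 (1.11 to 1.20).

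Metal and oxidant defense split by gene. Of 11 metallothionein and zinc transport genes, 4 were higher and 0 lower, with a median relative log2 ratio of 0.79. The metallothioneins *Mt1* and *Mt2*, which bind zinc and are close in sequence, had relative ratios of 4.54 (4.46 to 4.62) and 6.44 (6.23 to 6.65). *Slc39a6*, a zinc importer, was at 20.6 CPM (18.7 to 22.7) without treatment and 116 CPM (109.7 to 124) with IL-1β (relative ratio 4.18, 3.73 to 4.70), while *Slc30a8*, which loads zinc into insulin granules, was at 345 CPM (336 to 353) without treatment and 192 CPM (183 to 201) with IL-1β (relative ratio 0.413, 0.392 to 0.435), past 2-fold only relative to the median gene. Among 29 antioxidant genes 6 were higher, 0 lower, and the median was -0.05. The mitochondrial superoxide dismutase gene *Sod2* had a relative ratio of 7.66 (7.30 to 8.05) against 1.41 (1.32 to 1.499) for the cytosolic *Sod1*. *Slc7a11*, a cystine importer, was at 1.86 CPM (1.31 to 2.57) without treatment and 45.5 CPM (41.4 to 50.02) with IL-1β (relative ratio 18.1, 12.9 to 26.1), *Hmox1*, heme oxygenase 1, had 2.48 (2.29 to 2.70) and *Gpx1*, a glutathione peroxidase, 3.18 (2.98 to 3.40).

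Adhesion and costimulatory genes were higher for 5 of 11 tested of 20 listed, with 0 lower, and all 5 entered only through the IL-1β library. Under the IFN-γ filter 2 of 8 were higher and 0 lower. *Icam1*, a ligand of leukocyte integrins, had 1285 UMIs with IL-1β against 6 UMIs without (relative ratio 329, 151 to 899). With each cell given the same weight its relative ratio was 70.6, outside that interval. In cells of 4000 to 10000 UMIs, with 3 untreated UMIs, its CPM ratio was 33.4 (11.4 to 162), against 444 (204 to 1213) in all β-cells. With IL-1β an *Icam1* UMI was found in 29.3% of thinned β-cells. In the same library, without thinning, 28.6% of 35 endothelial cells and 8.11% of 37 macrophages held one. The level of *Icam1* was 134 CPM in the β-cells and 255 CPM in the endothelial cells, and the part of free RNA was not tested. *Cd40*, a receptor of the TNF receptor family, was at 0.252 CPM (0.0817 to 0.587) without treatment and 49.8 CPM (45.5 to 54.5) with IL-1β (relative ratio 147, 62.5 to 454). *Tlr2*, a receptor for bacterial lipoproteins, had 7.76 (6.65 to 9.10), *Tnfrsf11b*, which encodes osteoprotegerin, 38.5 (26.2 to 58.9) (16.9 with cells weighted equally), and *Cd274*, which encodes PD-L1, 2.11 (1.60 to 2.80).

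Interferon-linked genes were higher in these islets, to which no interferon was added. Of 42 listed and 28 tested, 18 were higher and 0 lower, of which 13 entered only through the IL-1β library. With the filter on the IFN-γ library 21 of 34 were higher and 0 lower. That filter is not neutral for this list, whose summed level was 530 CPM untreated and 6613 CPM with IFN-γ. The guanylate-binding protein genes, GTPases of cell-autonomous immunity, made up 8 of the 18. *Gbp2* was at 1.51 CPM (1.02 to 2.16) without treatment and 287 CPM (276 to 298) with IL-1β (relative ratio 141, 98.5 to 209), and *Gbp5* at 0.201 CPM (0.0549 to 0.515) without treatment and 56.0 CPM (51.3 to 60.9) with IL-1β (relative ratio 206, 80.0 to 759), the latter with a relative ratio of 121 (70.1 to 228) without the upper gene limit. *Gbp4* had 3 untreated UMIs and 517 UMIs with IL-1β. A *Gbp4* UMI was found in 14.9% of thinned IL-1β-treated β-cells. In the same library, without thinning, 17.1% of 35 endothelial cells and 0 of 37 macrophages held one, and the part of free RNA was not tested. In the library treated with IFN-γ alone *Gbp2* was at 819 CPM and *Gbp4* at 179 CPM. Family members are similar in sequence, and the sources used here do not say how reads shared by several of them were counted.

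*Irf1*, an interferon regulatory factor, had a relative ratio of 1.52 (1.32 to 1.76) and passed 2-fold only as a CPM ratio, of 2.05. The antiviral genes *Ifit1* and *Rsad2* were higher, at 2.71 (2.22 to 3.32) and 2.34 (1.74 to 3.16). Of 17 feedback inhibitor and interferon receptor genes 7 were higher and 0 lower (median 0.64). *Ifngr2*, a chain of the IFN-γ receptor, was at 5.59 CPM (4.596 to 6.73) without treatment and 58.2 CPM (53.4 to 63.2) with IL-1β (relative ratio 7.72, 6.29 to 9.55). *Ptpn2*, a phosphatase that acts on JAK and STAT proteins, was at 14.7 CPM (13.1 to 16.5) without treatment and 96.1 CPM (90.0 to 103) with IL-1β (relative ratio 4.85, 4.24 to 5.55), and the inhibitor *Socs3* had 3.14 (2.70 to 3.66).

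MHC class I and peptide loading genes were higher for 6 of 20 tested (11 by CPM ratio alone), 0 lower, with a median of 0.64. *H2-K1* and *H2-D1*, the class I heavy chains, had relative ratios of 1.55 (1.51 to 1.59) and 1.35 (1.30 to 1.40), and *B2m*, their light chain, 1.18 (1.12 to 1.23), of which *H2-K1* alone passed 2-fold, as a CPM ratio of 2.09. *Tap1*, which moves peptides into the endoplasmic reticulum, had 2.47 (1.90 to 3.23), and the immunoproteasome genes *Psmb8* and *Psmb10* had 2.27 (2.07 to 2.49) and 2.28 (2.09 to 2.48). By contrast, 0 of 31 constitutive proteasome genes passed 2-fold on both scalings and 1 as a CPM ratio alone, with a median of 0.06.

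Early-response transcription factors were mixed. Of 22 immediate early and MAPK phosphatase genes 11 were higher and 0 lower, of which 8 entered only through the IL-1β library. With the filter on the IFN-γ library 6 of 17 were higher and 0 lower. *Ier3*, an NF-κB target gene, was at 7.30 CPM (6.16 to 8.59) without treatment and 100.5 CPM (94.2 to 107) with IL-1β (relative ratio 10.2, 8.56 to 12.2), and *Maff*, a small MAF factor, had 7.73 (6.00 to 10.1). *Fos*, *Jun* and *Egr1* had relative ratios of 0.985 (0.871 to 1.11), 1.21 (1.14 to 1.29) and 1.21 (1.12 to 1.31). Among 4 C/EBP genes 3 were higher (median 1.49). *Cebpd* was at 57.8 CPM (54.5 to 61.3) without treatment and 928 CPM (909 to 947) with IL-1β (relative ratio 11.9, 11.2 to 12.7), and *Cebpb* at 61.8 CPM (58.4 to 65.4) without treatment and 317 CPM (306 to 329) with IL-1β (relative ratio 3.80, 3.56 to 4.07).

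β-cell transcription factors did not move as one group. Of 25 tested, 6 were lower (8 relative to the median gene alone) and 1 was higher (4 by CPM ratio alone), with a median relative log2 ratio of -0.24. *Mafa*, an activator of insulin transcription in mature β-cells (chr15:75745490-75748228), was at 622 CPM (612 to 634) without treatment and 71.3 CPM (66.1 to 76.9) with IL-1β, 11.8-fold lower relative to the median gene (relative ratio 0.0850, 0.0785 to 0.0918). It was found in 72.6% of untreated and 17.8% of treated cells after thinning, against 2 of 35 untreated macrophages (5.71%, median 9746 UMIs) and 0 of 37 in the IL-1β library (upper limit 9.49%). In cells of 4000 to 10000 UMIs the CPM ratio of *Mafa* was 0.185 (0.157 to 0.217), against 0.115 in all β-cells. *Gcg*, the α-cell hormone, was bounded by the choice of cells. The summed level of 6 α-cell markers was 351 CPM and 368 CPM, of which *Gcg* made up 132 CPM and 180 CPM. Of the 3 α-cell markers tested, 1 was higher and 1 lower.

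*Pdx1* was at 139.8 CPM (135 to 145) without treatment and 48.2 CPM (43.9 to 52.8) with IL-1β, 3.92-fold lower. *Nkx2-2*, a factor of endocrine identity, was at 82.7 CPM (78.7 to 86.8) without treatment and 34.5 CPM (30.9 to 38.4) with IL-1β, 3.24-fold lower, and *Mlxipl*, which encodes the glucose-responsive factor ChREBP, at 144 CPM (138 to 149) without treatment and 27.2 CPM (24.0 to 30.7) with IL-1β, 7.14-fold lower. *Nkx6-1* had a relative ratio of 0.426 (0.399 to 0.454), past 2-fold only relative to the median gene. *Neurod1*, *Isl1* and *Pax6*, also factors of endocrine cells, had 1.72 (1.63 to 1.81), 1.22 (1.14 to 1.29) and 0.900 (0.855 to 0.948), and of these *Neurod1* passed 2-fold as a CPM ratio, of 2.32.

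Genes of glucose sensing and stimulus-secretion coupling were lower for 6 of 25 tested (9 relative to the median gene alone) and higher for 0, with a median of -0.67. *Slc2a2*, the glucose transporter GLUT2 of rodent β-cells (chr3:28697903-28731359), was at 139 CPM (134 to 145) without treatment and 14.1 CPM (11.8 to 16.7) with IL-1β, 13.3-fold lower (relative ratio 0.0750, 0.0626 to 0.0892). *Ppp1r1a*, a protein phosphatase 1 inhibitor, was 7.08-fold lower, and *Hadh*, a fatty acid oxidation enzyme that restrains glutamate dehydrogenase, was at 316 CPM (309 to 324) without treatment and 119.7 CPM (113 to 127) with IL-1β, 3.57-fold lower. The fatty acid receptor gene *Ffar1* was 2.75-fold lower. *Abcc8* and *Kcnj11*, the subunits of the ATP-sensitive potassium channel, had relative ratios of 0.661 (0.631 to 0.692) and 0.976 (0.837 to 1.14), both within 2-fold.

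Glycolysis genes differed in both directions, with 4 of 16 higher, 1 lower and a median of -0.29. *Slc2a1*, the widely expressed glucose transporter GLUT1, was at 16.8 CPM (15.1 to 18.7) without treatment and 82.4 CPM (76.8 to 88.4) with IL-1β (relative ratio 3.63, 3.19 to 4.14), so that the 2 transporter genes differed in opposite directions. The phosphofructokinase gene *Pfkp* was at 53.0 CPM (49.9 to 56.4) without treatment and 232 CPM (223 to 242) with IL-1β (relative ratio 3.24, 3.01 to 3.49) while the muscle type *Pfkm* was at 11.1 CPM (9.66 to 12.6) without treatment and 4.28 CPM (3.07 to 5.81) with IL-1β (relative ratio 0.287, 0.200 to 0.402). *Pfkfb3*, which makes the activator of phosphofructokinase, was at 6.59 CPM (5.51 to 7.82) without treatment and 129 CPM (122 to 137) with IL-1β (relative ratio 14.6, 12.1 to 17.6). *Ldha*, lactate dehydrogenase A, is among the genes that mature β-cells normally keep low. It was at 4.78 CPM (3.87 to 5.85) without treatment and 15.6 CPM (13.2 to 18.3) with IL-1β (relative ratio 2.41, 1.85 to 3.15). Of 6 such disallowed or dedifferentiation genes tested of 24 listed, 2 were higher and 0 lower, and both entered only through the IL-1β library. Under the IFN-γ filter 0 of 2 were higher.

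Ion channel genes were lower for 4 of 20 and higher for 0, with a median of -0.67, and *Kcnk16*, a β-cell potassium channel gene, was 3.87-fold lower. Of 23 exocytosis genes 2 were lower and 1 higher (median -0.39), while 6 were lower relative to the median gene alone and 4 higher by CPM ratio alone. *Rab3a* and *Cplx2*, which act in vesicle docking and fusion, were 4.08- and 4.44-fold lower, and *Syt4*, a synaptotagmin gene, was at 156 CPM (151 to 162) without treatment and 509.7 CPM (496 to 524) with IL-1β (relative ratio 2.42, 2.31 to 2.53). Among 14 receptor genes 4 were lower, 3 higher, with a median of -0.14. The incretin receptor gene *Gipr* was at 33.3 CPM (30.8 to 35.9) without treatment and 13.2 CPM (10.96 to 15.7) with IL-1β, 3.41-fold lower, and the glucagon and prolactin receptor genes *Gcgr* and *Prlr* were 5.14- and 3.21-fold lower. *Igf1r*, the IGF-1 receptor gene, was at 152.3 CPM (147 to 158) without treatment and 543 CPM (529 to 558) with IL-1β (relative ratio 2.64, 2.53 to 2.77).

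Prohormone processing and granule genes were lower for 2 of 30 and higher for 2 on both scalings, with a median of -0.39, while 8 were lower relative to the median gene and 5 were higher by CPM ratio. *Ucn3*, a peptide of mature β-cells, was at 169 CPM (163 to 174) without treatment and 32.0 CPM (28.5 to 35.8) with IL-1β, 7.12-fold lower, and *Vgf*, a granin-like gene, at 6.04 CPM (5.01 to 7.22) without treatment and 33.0 CPM (29.5 to 36.9) with IL-1β (relative ratio 4.05, 3.27 to 5.04). The other gene on each side, *Ins1* and *Sst*, was used to choose the cells. *Pcsk1* and *Pcsk2*, the convertases that cut proinsulin, had 0.778 (0.731 to 0.826) and 0.686 (0.671 to 0.701), the granin *Chga* 0.497 (0.491 to 0.503), the carboxypeptidase *Cpe* 1.56 (1.52 to 1.59) and *Iapp*, which is secreted with insulin, 0.881 (0.878 to 0.884). Outside the lists, *Wnt4*, a signaling ligand gene, was 6.73-fold lower, *Insrr*, a receptor gene of the insulin receptor family, 4.45-fold, and *Dbp*, a clock output factor, 6.21-fold.

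Stress genes were higher in part. Of 26 unfolded protein and integrated stress response genes 5 were higher (10 by CPM ratio alone) and 0 lower (median 0.46). *Ddit3*, *Trib3* and *Chac1*, which act downstream of ATF4, had 2.06 (1.91 to 2.22), 4.23 (3.57 to 5.03) and 3.24 (2.83 to 3.71), while *Atf4* and the chaperone gene *Hspa5* had 1.88 (1.79 to 1.97) and 1.40 (1.37 to 1.43). Heat shock genes were higher for 6 of 18 and lower for 0 (median 0.54), with *Hspa1a*, an inducible HSP70 gene, at 84.0 CPM (80.0 to 88.1) without treatment and 282 CPM (271 to 293) with IL-1β (relative ratio 2.49, 2.34 to 2.64). Cells with at least 10 *Hspa1a* UMIs per 10000 numbered 19 of the untreated β-cells (1.62%) and 98 of the treated ones (8.73%). The share was 6.21% with IFN-γ alone and 6.22% with both cytokines, so it was not higher with IL-1β in that pair.

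Death receptor, caspase and BCL2 family genes were higher for 7 of 21 tested of 42 listed and lower for 0, and 5 of the 7 entered only through the IL-1β library. By CPM ratio alone 14 of the 21 were higher. Under the IFN-γ filter 5 of 18 were higher and 0 lower. *Fas*, a death receptor gene, had 1 untreated UMI and 334 UMIs with IL-1β, a relative ratio of 514 (91.6 to 20354) from the 1 UMI counted and 171 against the floor of 3. The pro-apoptotic *Bid* had a relative ratio of 5.04 (3.56 to 7.27). The anti-apoptotic *Bcl2l1* and *Mcl1* had 1.99 (1.70 to 2.34) and 1.87 (1.70 to 2.05), past 2-fold only as CPM ratios of 2.69 and 2.52, and the pro-apoptotic *Bax* had 0.727 (0.676 to 0.782).

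Housekeeping groups stayed near the median gene. Of 81 cytosolic ribosomal protein genes 2 were higher (*Rpl39* and *Rps28*, median 0.03), and 6 by CPM ratio alone. Of 73 nuclear oxidative phosphorylation genes 0 passed 2-fold on both scalings (median -0.15), with 3 higher as a CPM ratio alone and 2 lower relative to the median gene alone. Of 13 mitochondrially encoded genes 0 passed on both and 1 was higher as a CPM ratio alone (median -0.07). None of the 3 prostaglandin genes tested was called on both scalings. The plot of the lists shows the spread of each list, where genes that entered only through the IL-1β library have CPM ratios above 1 by construction.

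**Figure D2:**
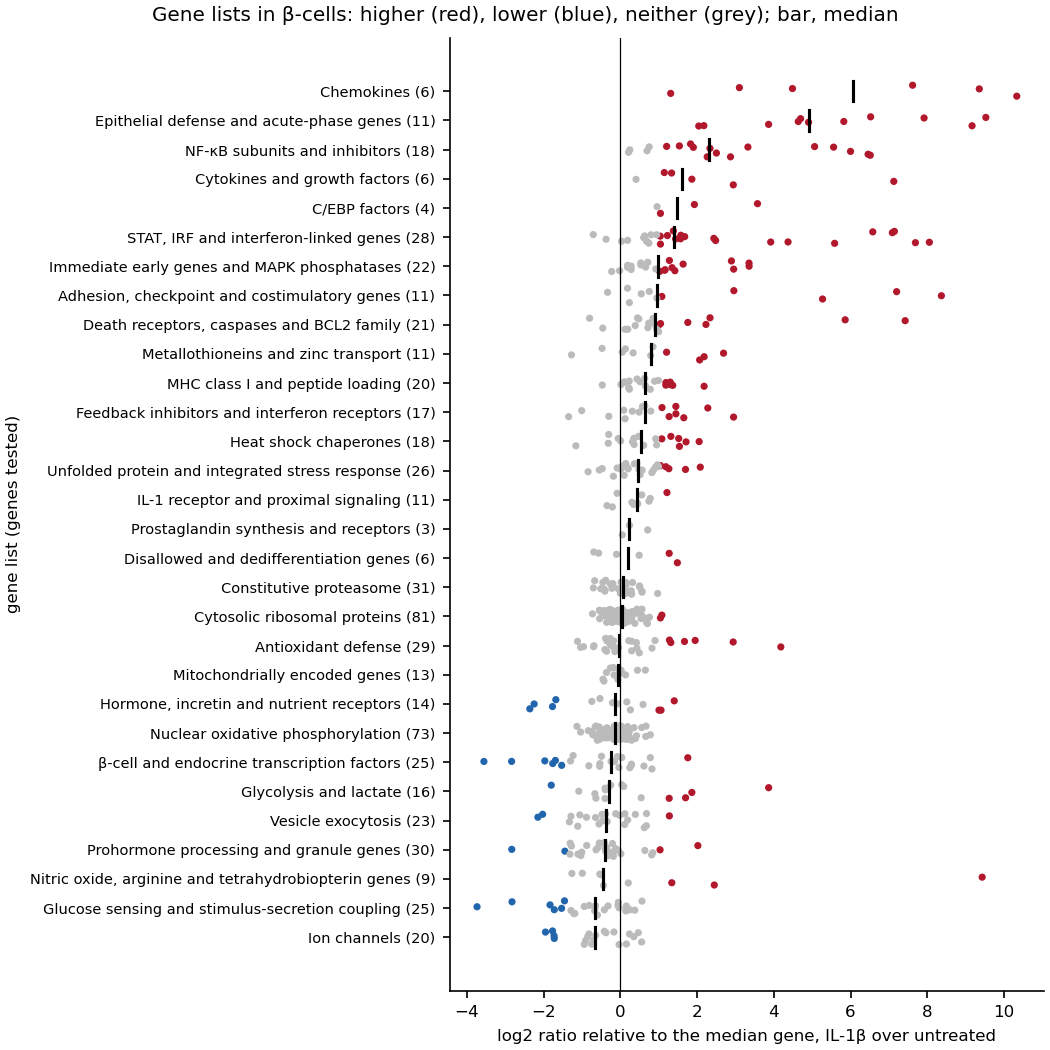
Log2 ratio relative to the median gene, IL-1β over untreated β-cells, for each tested gene of 30 lists, ordered by list median (black bar). Red genes passed 2-fold higher and blue genes 2-fold lower on both scalings, the numbers in brackets count the genes tested, and genes with under 3 untreated UMIs are drawn against a floor of 3. Chemokines, 5 of 6 of which entered only through the IL-1β library, are drawn at a median of 6.05, and ion channels and glucose sensing genes lie furthest left at -0.67.

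Most treated cells had a UMI of at least 1 of the 15 genes with the largest ratios. Each gene alone was found in 8.87% (*Fgb*) to 51.1% (*Gbp2*) of treated cells after thinning, with a median of 21.3%. The part of free RNA in these shares was not tested. Of the 15 genes with the largest ratios, the median untreated β-cell thinned to 4000 UMIs had 0 detected and the median IL-1β-treated β-cell had 3 (quartiles 2 and 5). None was detected in 96.1% of 1135 untreated cells, and in 119 of 1049 treated cells (11.3%). Of the 15 genes with the smallest ratios, the median cell had 6 detected without treatment and 1 with IL-1β. Since these genes were chosen for their ratios, the counts describe their spread over cells.

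Treated cells that were high in *Hspa1a* had fewer of the induced genes. In the 79 such cells deep enough for thinning, the median number of the 15 genes detected was 0 and 60.8% had none, against a median of 4 and 7.32% in the other 970 treated cells. Of the 15 genes with the smallest ratios the *Hspa1a*-high cells had a median of 3 and the others 1. Leaving the *Hspa1a*-high cells out gave 1477 higher and 315 lower genes by CPM ratio, close to the 1413 and 288 with them.

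**Figure D3:**
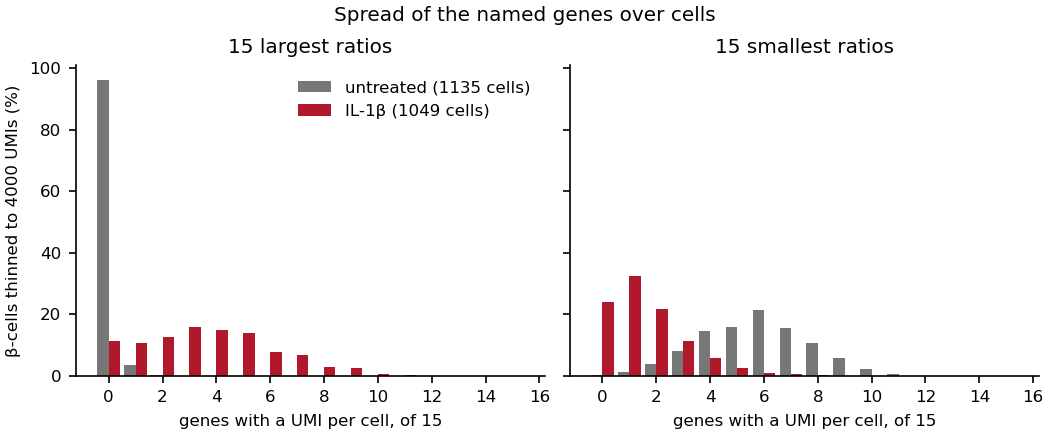
Number of the 15 genes with the largest ratio (left) and the 15 with the smallest ratio (right) that had a UMI in a β-cell thinned to 4000 UMIs, as percent of cells, for 1135 untreated and 1049 IL-1β-treated cells. Untreated cells stand at 0 on the left for 96.1%, treated cells spread up to 12, and on the right the treated cells shift toward 0.

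The remaining 2 libraries of the series allowed the same contrast in other cells, since islets with both cytokines and islets with IFN-γ alone also differ by IL-1β. They share neither library with the comparison above but came from the same mixed islets. Their β-cells numbered 1255 and 1256, with medians of 12209 and 11101 UMIs, and here the IL-1β side was the deeper one. Insulin made up 33.7% of β-cell UMIs with both cytokines and 28.8% with IFN-γ, so it was higher on the IL-1β side in this pair.

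The genes counted were the same 7944, which reached 10 CPM in the untreated or IL-1β library. In that pair 398 of them were higher (5.01%) and 432 lower (5.44%) on both scalings. Genes that reached 10 CPM only in the second pair were not counted. The shares of the 398 and 432 given below depend on this filter. Of the 600 genes higher with IL-1β alone, 314 were also higher there, which is 52.3% of the 600 and 78.9% of the 398. A total of 579 (96.5%) lay on the higher side of that pair's median gene. Their median relative log2 ratio was 1.56 in the first pair and 1.29 in this one. Of the 288 lower genes 162 were also lower (56.3% of the 288, 37.5% of the 432), and 268 (93.1%) lay on the lower side, with medians of -1.78 and -1.09.

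The same lists were counted in the second pair, over the genes that passed the level filter of the first pair. Over all genes so filtered, 5.01% were higher there and 5.44% lower. In the NF-κB, chemokine, acute-phase, adhesion and death lists, 9, 5, 8, 6 and 7 of the tested genes had entered only through the IL-1β library. Their counts therefore depend in part on that filter. NF-κB genes were higher for 15 of 18, chemokines for 6 of 6, acute-phase genes for 10 of 11, adhesion genes for 5 of 11 and death and BCL2 family genes for 8 of 21. Other lists had fewer higher genes than in the first pair. Heat shock genes were higher for 1 of 18 (6 in the first pair), MHC class I and peptide loading genes for 2 of 20 (6), C/EBP genes for 1 of 4 (3), receptor genes for 1 of 14 (3) and cytokines for 3 of 6 (5). Of the 22 immediate early and MAPK phosphatase genes 9 were higher and 3 lower, against 11 and 0. Interferon-linked genes were higher for 12 of 28, and *Gbp2* had a relative ratio of 2.61 over the level already present with IFN-γ. β-cell transcription factors were lower for 8 of 25, and *Mafa* was 7.64-fold and *Slc2a2* 7.48-fold lower. *Il1r1*, the receptor gene, was 2.07-fold lower in this pair, and *Fos* and *Egr1* were 2.58- and 3.17-fold lower.

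**Figure D4:**
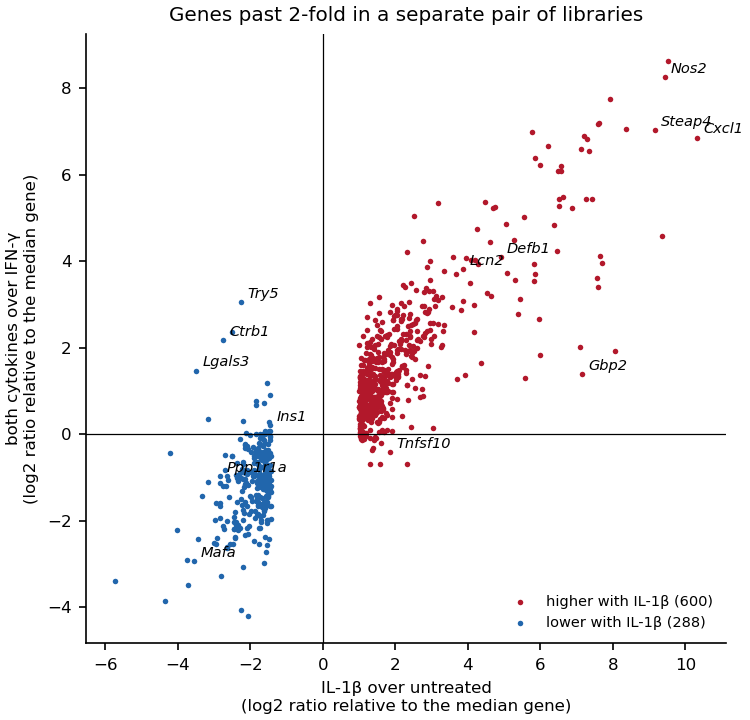
Log2 ratio relative to the median gene of each pair, IL-1β over untreated on the horizontal axis and both cytokines over IFN-γ on the vertical axis, for the 600 higher (red) and 288 lower (blue) genes of the first pair. Of the red points 96.5% lie above 0 and of the blue points 93.1% lie below 0, with *Ctrb1*, *Try5* and *Lgals3* among the blue points far above 0.

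No gene of the 600 was lower past 2-fold in the second pair, and 4 of the 288 were higher there, named here after their values were seen. *Ctrb1*, *Prss2* and *Try5* are digestive enzymes of acinar cells, and *Lgals3* encodes a lectin common in macrophages. *Ctrb1* was at 31.8 CPM untreated, 6.37 CPM after IL-1β, 43.0 CPM after IFN-γ and 165 CPM with both. The 11 acinar markers matched, of 12 listed, summed to 82.2 CPM in untreated and 19.0 CPM in IL-1β-treated β-cell barcodes, and 3 of the 3 tested were called lower. Endothelial markers summed to 6.54 and 16.9 CPM and ductal markers to 373 and 462 CPM, while the mesenchymal markers *Dcn* and *Lum* were at 0 in both. The part of RNA from other cells in the ratios was not tested.

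Depth and insulin content moved with treatment, and their values bear on the counts as follows. After thinning to 4000 UMIs per cell the CPM ratio gave 1413 higher and 340 lower genes. Among cells of 4000 to 10000 UMIs, which left 80 untreated and 723 treated β-cells, it gave 1374 and 643. All 30 genes with the largest and smallest ratios stayed past 2-fold on their side under each of 10 alternatives of cell choice, depth and scaling. For thinning and for totals without hormone genes this was a condition of their choice. The genes were also picked for extreme ratios, so the count is no independent check. Ratios against the floor of 3 UMIs are set by that floor and get smaller as fewer untreated UMIs are summed, so they were not compared between depths. They are not lower bounds, since for *Cxcl1*, *Hamp*, *Nos2* and *Ccl2* the exact lower limit was below the ratio against the floor. Whether β-cells with little insulin were left out more often with IL-1β was not tested.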

How the data were processed

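Single-cell RNA was measured in 4 libraries of mouse islets, of which the untreated and IL-1β libraries were compared. The deposited counts are raw UMI counts per gene and barcode, made by the authors with Cell Ranger (matrix header version 3.0.0) on mm10 per the submitters' processing notes, without normalization. The paper names version 3 of the reagent kit and the labels version 2. The sources used here do not give the annotation, and gene positions come from GENCODE M21 (GRCm38), which matched 31011 of 31053 identifiers. The scripts used scipy 1.17.1, pandas 2.3.3 and numpy 2.4.6 under Python 3.11.15, and doublets were called by Scrublet in scanpy 1.11.5 at an expected rate of 0.05 but not removed. β-cell counts were summed per library and scaled to CPM. Since each condition had 1 library, no test was made. Genes at 10 CPM in either library were compared at 2-fold, with a floor of 3 UMIs, and thinning drew 4000 UMIs per cell. This left out 35 untreated and 74 IL-1β-treated β-cells. The genes named are members of 30 lists, the 15 largest and 15 smallest ratios, and the 5 largest CPM changes each way. The ratios and changes were ranked among genes at 50 CPM without marker, hormone and mitochondrial genes. The 30 genes of the largest and smallest ratios also had to pass 2-fold after thinning and with hormone genes out of the totals. Cells and lists were chosen with earlier results of these data known. The requirement of 2-fold on both scalings and the level filter on the IFN-γ library were chosen after seeing the data. The CPM ratio rule was tested on simulated data for IL-1β over untreated over 7469 genes. It recovered 50 of 50 genes at each of 3- and 6-fold higher and lower and called 0 of 7269 unchanged genes. The intervals held 95.4%. Counts were Poisson draws from 1 profile for both libraries, without insulin shift or spread between libraries or cells. Changed genes were not taken from the lowest or highest levels. The simulation thus checks counting error only and does not measure false calls between 2 real libraries. Alternatives changed the cell limits, depth, scaling, weights of cells, doublets and thresholds. Some list members are counted but not reported here by name.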

Additional observations from a re-analysis of the deposited data

Results flagged for a closer look

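*Ins2*, the main mouse insulin gene, is listed because its 2 contrasts for IL-1β point in opposite directions. Its CPM ratio was 0.542 for IL-1β over untreated β-cells and 1.25 for both cytokines over IFN-γ. The difference between the 2 contrasts was not tested, since each has 1 library a side. Insulin UMIs also chose the cells. The deeper library had the higher insulin share in both contrasts, with medians of 17220.5 against 8327 UMIs and 12209 against 11101 UMIs per β-cell. After thinning to 4000 UMIs the insulin shares were 40.6% untreated, 21.6% after IL-1β, 27.4% after IFN-γ and 31.9% with both. In cells of 4000 to 10000 UMIs they were 34.2%, 20.7%, 22.2% and 23.7%.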

How the results depend on the processing

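The 30 genes with the largest and smallest ratios kept their side of 2-fold under each of 10 alternatives. This follows in part from their choice, which required it after thinning and without hormone genes. No value reversed its direction, but some CPM ratios moved. Ratios of genes with under 3 untreated UMIs are set by the floor of 3, get smaller as fewer UMIs are summed, and were not compared between depths. Without the upper gene limit *Hamp* fell from 992 against the floor to 399, *Gbp5* from 278 to 162, *Lrg1* from 255 to 119.9 and *Fgb* from 58.6 to 18.2. After thinning *Il4i1* fell from 219 to 103, *Tnfaip3* from 63.4 to 42.1 and *Steap4*, with 3 untreated UMIs, from 773 to 515. In cells of 4000 to 10000 UMIs, with 5 untreated UMIs, *Lrg1* was at 16.5 (7.04 to 51.0). With 3 untreated UMIs each in those cells, *Icam1* fell from 444 to 33.4 (11.4 to 162) and *Gbp2* from 190 to 63.9 (21.8 to 310). With equal weights for cells *Icam1* fell from 444 to 91.6 and *Tnfrsf11b* from 51.96 to 21.9. Among the 15 smallest, *Mafa* moved from 0.115 to 0.185 and *Vps8* from 0.245 to 0.370 in cells of 4000 to 10000 UMIs. Counts of genes depended on the scaling and the thresholds. By CPM ratio 1413 genes were higher and 288 lower. Leaving the hormone genes out of the totals gave 659 and 948, and setting the median gene's ratio to 1 gave 600 and 677. Requiring both scalings, an alternative added after seeing the data, gave 600 and 288. Cells of 4000 to 10000 UMIs gave 643 lower genes. A difference of 0.5 on the ln scale with genes found in at least 10% of cells gave 202 and 15, a 3-fold limit 477 and 102, a filter at 50 CPM 637 and 65, and no filter on level 5958 and 907. Of the higher genes, 52.3% were also higher in the pair of both cytokines over IFN-γ, against 62.8% with the median gene set to 1, 46.8% after thinning and 31.6% in cells of 4000 to 10000 UMIs. For the lower genes, 56.3% became 38.6% without hormone genes, 34.3% with the median gene set to 1, 48.5% after thinning and 30.8% in cells of 4000 to 10000 UMIs. Of the kept cells of the IL-1β library 55.6% were β-cells, and 49.9% when insulin had to reach 10% and other hormones stay under 0.5%. Over the 15 genes with the largest ratios, the median share of IL-1β-treated β-cells with a UMI was 21.3% after thinning to 4000 UMIs, 12.4% at 2000 UMIs and 28.4% without thinning. The causes were not tested.

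No paired analysis was possible because each condition had 1 library, and for the same reason no replicate could be left out. Depth limits the lower side of the ratios: the floor of 3 UMIs used for a gene at 0 UMIs is 0.151 CPM without treatment and 0.313 CPM with IL-1β. The untreated and IL-1β libraries differ in depth, insulin content and the share of cells removed by the gene limit, which cannot be told apart from the treatment as long as each is 1 library.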

Other observations

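Further genes outside the lists differed, and those below were picked after their values were seen. *Rgs4*, a regulator of G protein signaling, was at 37.7 CPM (35.1 to 40.5) without treatment and 487 CPM (473 to 502) with IL-1β (relative ratio 9.57, 8.86 to 10.4). *Tifa* and *Ripk2*, adaptors that lead to NF-κB, were at 4.68 CPM (3.78 to 5.73) without treatment and 170.3 CPM (162 to 179) with IL-1β (relative ratio 27.0, 21.9 to 33.6) and 3.52 CPM (2.75 to 4.45) without treatment and 92.2 CPM (86.2 to 98.5) with IL-1β (relative ratio 19.4, 15.2 to 25.1), respectively. *Ehf*, an epithelial ETS factor, had a relative ratio of 24.3 (17.2 to 35.5), and *Litaf*, a lysosomal membrane protein gene, one of 15.4 (13.2 to 18.2). *Tac1*, the precursor of substance P, had 1 untreated UMI and 302 UMIs with IL-1β. The amino acid transporter gene *Slc6a14* had no untreated UMI and 298 UMIs with IL-1β. Its relative ratio was 153 against a floor of 3 UMIs (exact lower 95% limit 124). In the pair of both cytokines over IFN-γ, the relative ratios were 4.07 for *Rgs4*, 38.2 for *Tifa*, 15.2 for *Ripk2*, 113 for *Tac1* and 43.3 for *Slc6a14*.

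Among the lower genes, *Hs3st6*, a heparan sulfate sulfotransferase gene, was at 31.6 CPM (29.1 to 34.1) without treatment and 2.09 CPM (1.28 to 3.23) with IL-1β, 20.4-fold lower relative to the median gene. *Mapk15*, an atypical MAP kinase gene, was 10.8-fold lower, and *Nr1h3*, which encodes the sterol receptor LXRα, 7.54-fold. *Apoe*, a lipoprotein gene that macrophages express highly, was at 22.9 CPM (20.8 to 25.1) without treatment and 1.67 CPM (0.955 to 2.71) with IL-1β. The macrophage markers *C1qa* and others in the same barcodes are given above as a summed level of 97.9 CPM and 60.8 CPM. Of the 2 of them tested, 1 was higher and 0 were lower. In the second pair *Hs3st6* was 14.4-fold lower, *Mapk15* 5.35-fold and *Nr1h3* 5.30-fold lower, while *Apoe* was 1.35-fold lower.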
